A study of Mus musculus with 6 samples.

Results

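Myog myocytes are here muscle precursor cells in which a transcript of Myog, which encodes myogenin, was detected and none of Pax7 was. They were picked out of droplet single-cell RNA libraries of injured mouse quadriceps as barcodes with at least 500 genes and at most 15% mitochondrial counts, in which at least 2 of the 5 muscle genes Cdh15, Chrna1, Des, Myod1 and Fgfr4 and also Myog were detected. Pax7, the leukocyte gene Ptprc and the endothelial gene Pecam1 had to be at 0, at most 2 of the 4 cell cycle genes Top2a, Mki67, Birc5 and Ube2c could be present, and the 5 myofibre genes Acta1, Ckm, Mylpf, Tnnt3 and Tnnc2 had to stay under 5% of counts. This left 453 cells of 42942 that passed the quality filter. The values of these genes chose the cells, so their levels below are a description.

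All 6 mice carried the alleles Cdh5-CreERT2 and R26R-tdTomato, in which an endothelial promoter drives a tamoxifen-dependent recombinase that switches on a red reporter. Their quadriceps was injured with cardiotoxin, a snake venom toxin that destroys myofibres, and was taken 5 days later. The 3 mice of the group CLL received clodronate liposomes, which partly ablate circulating monocytes, into a vein 1 day before and 2 days after the injury. The 3 mice of the group SHAM received PBS liposomes on the same days. Each library is 1 mouse, and age, sex and dose are not stated in the labels.

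When muscle regenerates, Pax7-positive satellite cells divide as myoblasts under Myf5 and Myod1, then leave the cell cycle and switch on Myog. Myogenin, with Mef2 factors, turns on genes for the contractile apparatus, the acetylcholine receptor of the future synapse, and the membrane proteins myomaker and myomerger (Mymk and Mymx), which fuse myocytes into new fibres. Macrophages are known to influence both the growth of myoblasts and their differentiation after injury.

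The 3 CLL libraries held 53, 41 and 86 of these cells and the 3 SHAM libraries 241, 21 and 11 (replicates 1 to 3 in that order throughout), so SHAM replicate 1 gave more than the other 5 libraries together. Library totals ranged from 23873416 to 94841003 UMIs (unique molecular identifiers, counted transcripts), and the Myog myocytes held 850877, 280288 and 1209308 of them in CLL and 1380958, 412102 and 199265 in SHAM. Cells were shallow in CLL replicate 2 and SHAM replicate 1, with medians of 3063 and 4827 UMIs, and deeper in the other 4 libraries, at 12216 to 19264. SHAM replicate 1 also had the highest sums of fibroblast, macrophage or monocyte, and T, NK or neutrophil markers. CLL replicate 2 had the highest sum of adipocyte markers. The 13 fibroblast markers summed to 3635, 8602 and 6707 CPM (counts per 1000000 UMIs of those cells) in the Myog myocytes of CLL replicates 1 to 3 and to 10924, 1356 and 1475 CPM in SHAM. The 16 macrophage or monocyte markers summed to 1356, 771 and 95.1 CPM in CLL and 4936, 143 and 472 CPM in SHAM, and the 7 adipocyte markers reached 3229 CPM in CLL replicate 2 against 5.02 to 90.5 CPM elsewhere. The T, NK or neutrophil markers summed to 427 CPM in SHAM replicate 1 and to at most 0.827 CPM elsewhere, with Cd3d at 0 in all 6. The part of these transcripts in the results below was not tested. The counts of genes called by edgeR and the numbers of Myog myocytes are also given without CLL replicate 2 and SHAM replicate 1. That setting was not planned and leaves CLL replicates 1 and 3 against SHAM replicates 2 and 3. A limit of 1% on other cell types' markers, used below, was not planned either. Of the 453 cells, 1 shared its barcode sequence with a barcode of another library, and none with another Myog myocyte.

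The promoters of 4 genes of these cells are shown because myogenin and MyoD bind E-boxes, the motif CANNTG. They are the gene that names the cells, Myog, the acetylcholine receptor subunit genes Chrna1 and Chrng, which are textbook targets of these factors, and the slow troponin gene Tnnt1, whose level had the smallest p of all genes between the mouse groups. Each is the 250 bases before the gene's start in RefSeq on build GRCm38.p6, written 5′ to 3′ on the gene's strand, with every E-box in capitals.
Myog, chr1:134289754-134290003, plus strand: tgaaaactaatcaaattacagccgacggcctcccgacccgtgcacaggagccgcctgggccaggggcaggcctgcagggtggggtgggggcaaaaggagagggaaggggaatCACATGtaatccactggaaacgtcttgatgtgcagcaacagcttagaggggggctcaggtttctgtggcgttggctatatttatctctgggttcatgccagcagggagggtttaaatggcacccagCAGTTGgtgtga
Chrna1, chr2:73580339-73580588, minus strand: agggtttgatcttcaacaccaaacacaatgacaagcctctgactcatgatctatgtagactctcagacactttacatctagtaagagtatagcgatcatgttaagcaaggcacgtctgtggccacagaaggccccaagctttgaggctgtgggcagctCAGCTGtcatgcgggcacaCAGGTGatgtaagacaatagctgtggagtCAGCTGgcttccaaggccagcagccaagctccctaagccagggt
Chrng, chr1:87205561-87205810, plus strand: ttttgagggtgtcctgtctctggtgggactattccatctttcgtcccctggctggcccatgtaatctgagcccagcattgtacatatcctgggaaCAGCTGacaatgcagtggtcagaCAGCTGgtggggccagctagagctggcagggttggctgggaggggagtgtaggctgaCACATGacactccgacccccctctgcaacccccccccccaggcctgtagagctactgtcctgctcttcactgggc
Tnnt1, chr7:4515976-4516225, minus strand: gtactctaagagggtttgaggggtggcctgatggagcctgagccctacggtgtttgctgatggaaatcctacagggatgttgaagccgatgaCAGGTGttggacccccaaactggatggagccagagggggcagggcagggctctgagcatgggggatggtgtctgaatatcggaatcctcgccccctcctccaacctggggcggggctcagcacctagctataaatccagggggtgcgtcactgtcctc
The motif reads the same on both strands. Myog held 2 E-boxes, Chrna1 3, Chrng 3 and Tnnt1 1, and the form CAGCTG occurred 2 times each in Chrna1 and Chrng and not in the other 2. Of all 27025 promoters of this length in the table, 66.0% held at least 1 E-box and 12.8% held CAGCTG, so a match is common and describes the letters only. Of the sarcomere genes described below, Tnnt2 held 4 E-boxes, Myh3 1, and Actc1 and Myl4 none in this window. Mymk, Mymx and Chrnd had no entry.

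The name was first checked on Mymk and Mymx, which the rule does not use. Mymk was at 333, 210 and 223 CPM in the Myog myocytes of CLL replicates 1 to 3 and at 196, 272 and 467 CPM in those of SHAM. In Pax7-positive cells, taken from the same libraries with the same limits but with Pax7 detected and Myog at 0 (1040 cells), it was at 0.793, 3.54 and 0.752 CPM in CLL and 0.903, 0 and 0.905 CPM in SHAM. Every library thus had far more Mymk in its Myog myocytes. Mymx was at 507, 325 and 544 CPM in CLL and 363, 403 and 597 CPM in SHAM, against 0 to 8.64 CPM in Pax7-positive cells. Counts were drawn down to 1000 UMIs per cell to compare shares at equal depth. Mymk then appeared in 9.09% to 22.6% of Myog myocytes per library, in none of the Pax7-positive cells, and in 0 to 0.649% of macrophage-type barcodes, which should lack it. The undrawn shares were 26.8% to 71.4% of Myog myocytes, 0 to 3.33% of Pax7-positive cells and 0 to 2.22% of macrophage-type barcodes. The median depths of Myog myocytes and Pax7-positive cells differed most in CLL replicate 2, at 3063 and 11007 UMIs.

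A further 272 barcodes of the same gate had both Myog and Pax7 and are not counted as Myog myocytes. Their Mymk lay between the states, at 61.4 to 136 CPM over the 6 libraries, and so did their Mymx, at 96.5 to 250 CPM. Their Myog was 502 to 1072 CPM, against 1742 to 4567 CPM in the Myog myocytes.

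The rest of the program was described by the ratio of each gene's level in Myog myocytes to that in Pax7-positive cells of the same library, with 5 CPM added to both. Genes that chose either state were left out. Of 5869 genes, 102 were at least 2-fold higher in all 6 libraries (1.74%) and 36 at least 2-fold lower in all 6 (0.613%). The states were defined on the same counts, so no test was run. Of the embryonic and slow sarcomere list, 12 of 20 genes were higher and none lower, and their median log2 ratio was 2.83, against -0.11 for all genes compared. Actc1, which encodes the cardiac actin that embryonic and regenerating skeletal muscle also uses, stood at 1310 CPM on average against 3.39 CPM and had the largest ratio of all. It was followed, with Mymx and Mymk among them, by Tnni1, the slow troponin I gene (503.7 against 6.04 CPM), Myh3, the embryonic myosin heavy chain gene (341 against 3.10 CPM), Myl4, the embryonic myosin light chain gene (753 against 28.8 CPM), and Tnnt2, the cardiac troponin T gene (1384 against 86.3 CPM). Klhl41, which stabilises thin filament proteins, and Csrp3, a Z-disc protein gene, completed the first 9.

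In the other lists, 4 of 6 mature fast sarcomere genes, 6 of 12 genes of the calcium release machinery and 2 of 5 genes of the acetylcholine receptor and synapse were higher by the same measure. Chrng, the subunit gene of the fetal receptor, was at 74.0, 49.9 and 53.8 CPM in CLL and 39.8, 24.3 and 146 CPM in SHAM, against 6.92 to 16.2 CPM in Pax7-positive cells. Chrnd, the delta subunit gene, was at 19.4 to 70.3 CPM against 2.06 to 7.89 CPM. Both genes were higher in Myog myocytes in every library.

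Genes of cell cycle exit were split. Cdkn1a, the p21 inhibitor gene, was at 447, 268 and 435 CPM in CLL and 403, 366 and 487 CPM in SHAM, against 26.0 to 115 CPM in Pax7-positive cells. Cdkn1c, the p57 inhibitor gene, was at 5668, 1977 and 7496 CPM in CLL and 4098, 8379 and 9154 CPM in SHAM, against 1080 to 2396 CPM. Both were higher in Myog myocytes in all 6 libraries, but Cdkn1c was under 2-fold higher in CLL replicate 2 (1977 against 1080 CPM). Only 2 of 14 genes of the list, Cdkn1a among them, were 2-fold higher in all 6, and the list's median log2 ratio was -0.18. Cdkn1a was also at 230 to 425 CPM in macrophage-type barcodes. Hes6, a Myog-promoting partner of the Notch-responsive repressors, was at 134 to 286 CPM against 39.8 to 77.8 CPM, and Dll1, a Notch ligand gene, at 10.7 to 60.2 CPM against 3.91 to 6.86 CPM. For Cdkn1a, Hes6 and Dll1 the lowest Myog myocyte value lay above the highest Pax7-positive value, and for Cdkn1c the ranges overlapped across libraries.

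Among the 36 lower genes were several of the precursor state. Myf5, the early myogenic factor gene, was at 16.5, 28.5 and 15.7 CPM in CLL and 35.5, 16.99 and 0 CPM in SHAM, against 105 to 191 CPM in Pax7-positive cells, the most negative ratio of the 36. Chodl, which encodes the lectin-like membrane protein chondrolectin, averaged 10.1 against 150 CPM, and Msc, which encodes the repressor musculin, 20.2 against 158 CPM. Igfbp5, which binds insulin-like growth factors, averaged 286 against 1585 CPM, and Heyl, a Notch target gene, 27.1 against 126 CPM. Of the muscle stem cell list, 3 of 16 genes were lower and none higher, and of the Notch pathway 2 of 8 were lower. None of 33 oxidative phosphorylation genes was 2-fold higher in all 6 libraries, and their median log2 ratio was 0.43.

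Some genes of later maturation were at or near 0 and others were not. The 18 mature fast sarcomere genes, which include the rule's myofibre genes, summed to 5834, 7774 and 5471 CPM in CLL and to 3277, 3298 and 7683 CPM in SHAM. Myf6, which encodes the factor MRF4 of maturing fibres, was at 1.18, 0 and 0 CPM in CLL and 1.45, 0 and 0 CPM in SHAM. Mstn, the gene of the growth inhibitor myostatin, had 0 of 4332798 UMIs, which allows a level of up to 0.692 CPM by counting error alone. Myh8, the perinatal myosin heavy chain gene, was at 22.3 to 50.2 CPM in the 6 libraries, against 0 to 7.08 CPM in Pax7-positive cells.

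**Figure D1:**
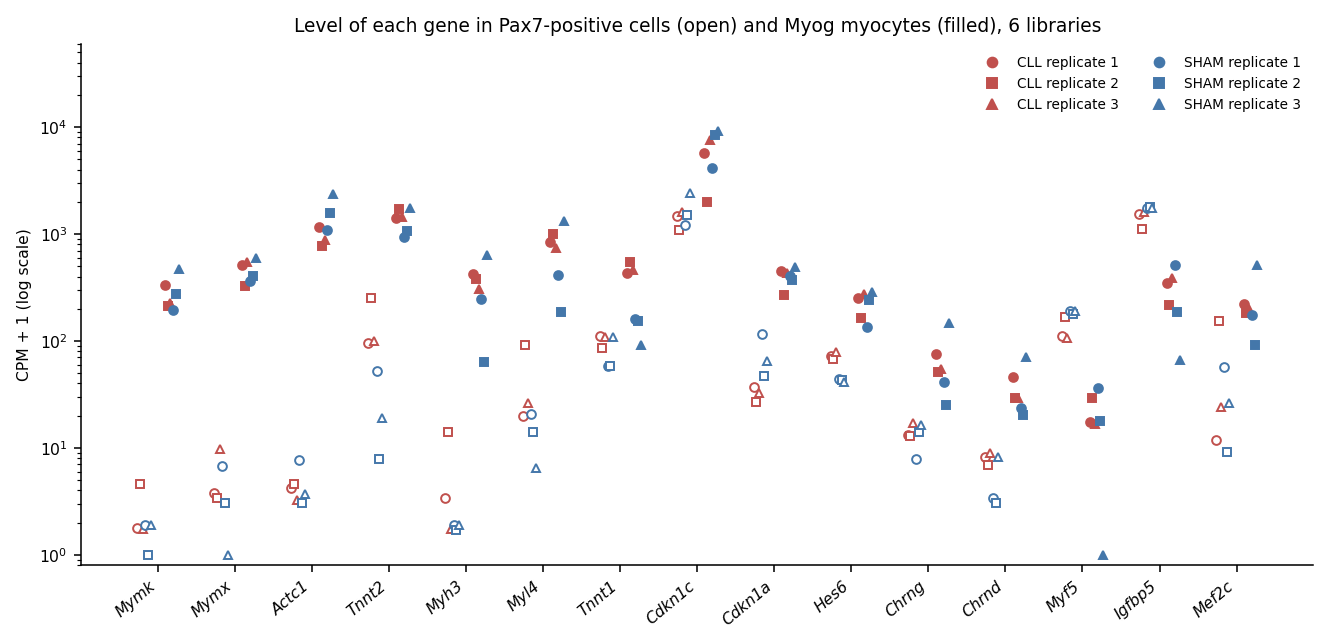
Level of 15 genes, as CPM plus 1 on a log axis, in Pax7-positive cells (open symbols) and Myog myocytes (filled symbols) of the 6 libraries. Actc1 stood at 774 to 2384 CPM in Myog myocytes against 2.06 to 6.62 CPM, while Myf5 and Igfbp5 were lower in the Myog myocytes of every library.

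The Myog myocytes were not uniform. A Mymk or Mymx transcript was detected in 40 of 53, 21 of 41 and 64 of 86 cells in CLL and in 136 of 241, 18 of 21 and 8 of 11 in SHAM, and this split moves with depth: the cells with a transcript had the higher median UMI count in 5 of 6 libraries (17881 against 8510 in CLL replicate 1, for example). Levels in CPM differed as well. Myog itself was at 2710, 2314 and 2666 CPM in CLL and 2408, 3328 and 4714 CPM in SHAM in cells with a fusion transcript, and at 595, 496 and 397 CPM and 548, 454 and 907 CPM in cells with none. Actc1 was at 1032 to 2475 CPM in cells with a fusion transcript and at 0 to 138 CPM in cells with none. Myh3 ranged from 74.7 to 663 CPM in the former and from 0 to 111 CPM in the latter. The 2 kinds of cells did not overlap for Myog and Actc1. Cells with no fusion transcript also carried more of other cell types' transcripts in some libraries, with Lyz2, the macrophage lysozyme gene, at 1951 against 161 CPM in CLL replicate 1 and 2195 against 1190 CPM in SHAM replicate 1. Both transcripts were found in the same cell in 14.6% to 57.1% of cells per library.

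Cells at the edges of the rule had the same order. The 97 cells with a single Myog UMI held 17.8 CPM of Mymk and 43.5 CPM of Actc1 when pooled, and the 356 with 2 or more held 282 and 1275 CPM. The 1091 barcodes just outside, which met every condition but had no Myog, held 2.19 and 8.37 CPM. The 88 barcodes left out for exactly 1 Pax7 UMI held 169 CPM of Mymk and 785 CPM of Actc1. The 41 left out for 3 or 4 cell cycle genes held 70.2 and 339 CPM, and the 2 left out as myofibre-rich 222 and 1551 CPM. Cells with a single Myog UMI were 60 of 241 in SHAM replicate 1 and 14 of 41 in CLL replicate 2. Myog was at 0.481 to 50.5 CPM in macrophage-type barcodes, which should lack it. The part of free Myog transcript and of undetected Pax7 in the Myog myocytes was not tested.

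The study asks how ablation of monocytes alters the repair of injured muscle, and for these cells that is first a question of how many there were. Myog myocytes made up 1.49%, 0.514% and 1.53% of barcodes past the quality filter in CLL and 1.07%, 1.24% and 0.713% in SHAM. The exact binomial 95% intervals, which cover counting error only, ran from 0.369% to 0.697% in CLL replicate 2 and from 0.356% to 1.27% in SHAM replicate 3. The groups overlapped, and their means of 1.18 ± 0.578% and 1.01 ± 0.267% (SD, n = 3 each) gave p = 0.60 in a two-sided exact permutation test, which with 3 against 3 cannot go below 0.10. Without CLL replicate 2 and SHAM replicate 1 the difference was 0.54 percentage points in place of 0.18, and without CLL replicate 3 it was -0.0013. In these shares a change in the other cell types moves the denominator.

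Within the muscle gate, barcodes were drawn to 1000 UMIs each so that libraries were compared at equal depth. Barcodes with both Myog and Pax7 were then 0 to 5.68% of those with Myog per library, against 17.3% to 50.7% undrawn. The Myog myocytes at this depth can thus include barcodes whose Pax7 went undetected. They were 18 of 106, 12 of 97 and 60 of 233 barcodes in CLL and 83 of 470, 7 of 33 and 6 of 20 in SHAM. These are shares of 16.98%, 12.4% and 25.8% against 17.7%, 21.2% and 30.0%, with exact binomial 95% intervals as wide as 11.9% to 54.3% in SHAM replicate 3. The groups overlapped (means 18.4 ± 6.80% and 22.96 ± 6.35%, exact permutation p = 0.40), and without drawing down CLL was 0.50 percentage points higher, so the direction rests on the depth correction. The difference of -4.59 percentage points ran from -8.28 to -1.07 with 1 library left out (lowest without CLL replicate 3, highest without SHAM replicate 3) and was -4.24 without both CLL replicate 2 and SHAM replicate 1. With at least 3 muscle genes required it was -18.4, with at most 23.3% in the CLL libraries against 28.4%, 25.0% and 66.7% in SHAM, so the groups did not overlap (exact permutation p = 0.10). The values of SHAM replicates 2 and 3 there come from only a part of their 33 and 20 gated barcodes, so they rest on few barcodes. Only 1, 1 and 0 gated barcodes in CLL and 6, 0 and 0 in SHAM were too shallow to be drawn.

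Set against their precursors, Myog myocytes numbered 0.453, 0.683 and 0.534 per Pax7-positive cell in CLL and 0.418, 0.276 and 0.220 in SHAM. All CLL values lay above all SHAM values (means 0.557 ± 0.117 and 0.305 ± 0.102), and the exact permutation p of 0.10 is the smallest this design allows. This ratio was added after the data had been seen. Its denominator depends on detecting Pax7, which was at 134, 163 and 136 CPM in the Pax7-positive cells of CLL. In those of SHAM it was at 291, 237 and 234 CPM. The part of this difference in the ratio was not tested. With both states defined at 1000 UMIs per barcode the means were 3.34 and 2.05 with an exact permutation p of 0.30, and at 2000 UMIs 1.598 and 0.791 with one of 0.20, so the order of the means stayed and the separation did not. Without CLL replicate 2 and SHAM replicate 1 the difference was 0.245 in place of 0.252.

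**Figure D2:**
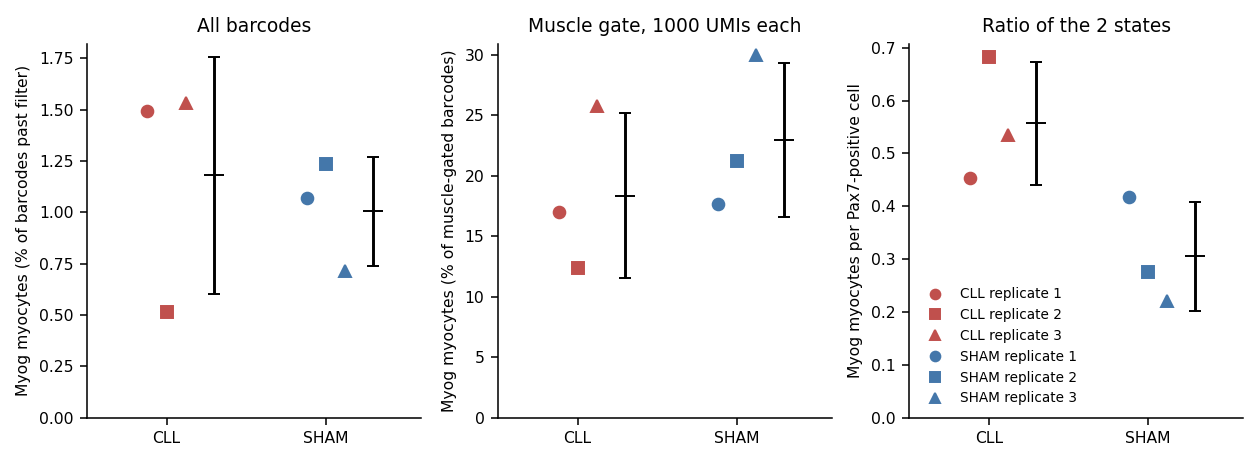
Myog myocytes as a share of barcodes past the quality filter, as a share of muscle-gated barcodes at 1000 UMIs, and per Pax7-positive cell. Symbols are libraries and black bars are the mean ± SD of 3; the groups overlap in the first 2 panels and are separate in the third, where CLL lies at 0.453 to 0.683 and SHAM at 0.220 to 0.418.

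The second question is whether the Myog myocytes of CLL mice differed in their transcripts. The counts were summed per mouse and compared with edgeR's quasi-likelihood test over all 6012 genes with enough counts. No gene passed an adjusted p of 0.05. Of the 6012 genes, 2867 were fitted higher and 3145 lower in CLL. Genes named below for a small p were picked on these same counts, so a lack of overlap in them is a description. At an unadjusted p under 0.05 there were 429 genes (7.14%), 173 higher (2.88%) and 256 lower (4.26%) in CLL, and for 859 genes (14.3%) the 3 CLL values did not overlap the 3 SHAM values, 251 with CLL higher (4.17%) and 608 with CLL lower (10.1%). DESeq2 called 8 of the 819 genes to which it gave an adjusted p (0.977%). Without SHAM replicate 1, edgeR called 36 genes higher and 11 lower, and without both SHAM replicate 1 and CLL replicate 2 it called 18 and 5. On simulated counts the same test found 190 of 200 genes changed by 2 on the log2 scale, with 12 false calls. It found 11 of 200 changed by 1, with 0 false calls, so a change of 1 on that scale would mostly be missed. The simulation gave every gene the same spread and changed only genes above a minimum level. Irf9, Elmo1 and other genes named below lie under that level, so these shares do not cover them. In the counts of the mice, fitted log2 folds ran from -3.76 to 3.82 over the 6012 genes and none passed. Whether the shares above hold for the spread between these mice was not tested.

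The genes that define the cells showed no called difference. Mymk was at a mean of 255 ± 67.1 CPM in CLL and 311 ± 140 CPM in SHAM. Its log2 fold was -0.19 (95% interval -0.9999 to 0.62, edgeR adjusted p = 0.944). Mymx was at 458 ± 117 and 454 ± 125 CPM (log2 fold 0.09, interval -0.55 to 0.72, edgeR adjusted p = 0.981). On the linear scale the intervals run from 0.50 to 1.54 for Mymk and from 0.683 to 1.65 for Mymx, and the Mymk fold was 0.23 on the log2 scale when SHAM replicate 3, with its 11 cells, was left out. Myog, which the rule uses, was at 1791 to 2351 CPM in CLL and 1742 to 4567 CPM in SHAM, and Myod1 at 96.3 to 120 CPM and 138 to 291 CPM. Chrna1, also in the rule, was at 723, 567 and 796 CPM in CLL and 392, 381 and 667 CPM in SHAM. The log2 folds of Cdkn1a (-0.05), Cdkn1c (-0.48), Hes6 (0.14), Dll1 (-0.34), Mef2c (-0.25), Myf5 (-0.26), Chrng (0.06) and Chrnd (0.22) had intervals that included 0, with adjusted p from 0.873 to 0.999.

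**Figure D3:**
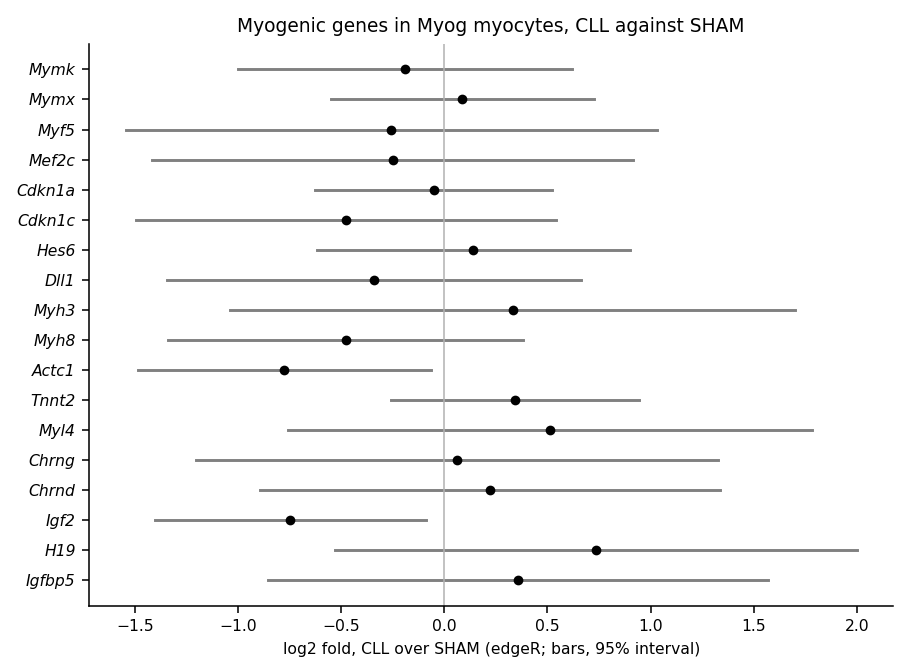
Log2 fold of CLL over SHAM in Myog myocytes for 18 myogenic genes that the rule does not use, with 95% intervals from edgeR over 3 against 3 libraries. Only the intervals of Actc1 (-1.49 to -0.06) and Igf2 (-1.40 to -0.09) leave out 0, and both genes had an adjusted p of 0.692.

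The sarcomere genes did not move as 1 group. Of 20 embryonic and slow sarcomere genes tested, 11 were fitted higher and 9 lower in CLL, 4 and 3 of them at an unadjusted p under 0.05, with a median log2 fold of 0.19 against -0.02 for all genes. That median was -0.55 when only cells with under 1% myofibre transcripts were kept, and -0.02 without CLL replicate 2 and SHAM replicate 1. Actc1 was at 1165, 774 and 879 CPM in CLL and 1095, 1565 and 2384 CPM in SHAM. Its log2 fold was -0.78 ± 0.32 SE (edgeR adjusted p = 0.692), and the groups overlapped at SHAM replicate 1. Myh3 (0.33), Myl4 (0.51), Tnnt2 (0.34) and Myh8 (-0.48) had folds with intervals that included 0.

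Tnnt1, which encodes the troponin T of slow fibres, had the smallest p of all 6012 genes. It was at 432, 549 and 455 CPM in CLL and 159, 153 and 90.3 CPM in SHAM. The lowest CLL value was more than 2 times the highest SHAM value. The log2 fold was 1.88 ± 0.27 SE (95% interval 1.28 to 2.47, unadjusted p = 4.5e-05), but the edgeR adjusted p was 0.27, and over the 17 alternatives it ran from 3.39e-07 to 0.999, past the threshold in 5. In DESeq2 it was 2.99e-06. Tnnt1 was found in 43 of 53, 21 of 41 and 73 of 86 cells in CLL and in 87 of 241, 14 of 21 and 5 of 11 in SHAM, and the barcode with the most held 63 of the 368 UMIs of CLL replicate 1. In Pax7-positive cells it was at 111, 85.0 and 108 CPM in CLL and 56.9, 56.9 and 108 CPM in SHAM, where the groups overlapped, and the difference between the 2 states' folds was 1.33 ± 0.41 SE (edgeR interaction, adjusted p = 1). With cells of under 1% myofibre transcripts the fold was 1.17. Tnnt1 was also higher in CLL, without overlap, in macrophage-type barcodes, at 21.2 to 36.3 CPM against 3.97 to 15.5 CPM in SHAM. Over all barcodes past the quality filter it was at 31.6 to 44.2 CPM against 18.04 to 22.9 CPM, also without overlap. The groups overlapped in muscle-gated cycling cells, in barcodes with both Myog and Pax7, in those with neither and in those with Pecam1. The part of this in the Myog myocyte difference was not tested.

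The next genes of the list rested on few counts. Tnnc1, the slow and cardiac troponin C gene, was at 115, 492 and 82.7 CPM in CLL and 47.1, 2.43 and 35.1 CPM in SHAM. Its log2 fold was 2.97 ± 0.84 SE (edgeR adjusted p = 0.666), with UMIs in 7, 9 and 16 cells of CLL and 10, 1 and 1 of SHAM. Hspb3, a small heat shock protein gene of muscle, was at 27.0, 21.4 and 38.0 CPM against 12.3, 4.85 and 20.1 CPM (log2 fold 1.48 ± 0.43 SE, edgeR adjusted p = 0.666), from 23, 6 and 46 UMIs against 17, 2 and 4. The groups did not overlap for either gene. Over the list they did not overlap for 4 of 20 genes, against 14.3% of all genes tested.

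In the fusion and adhesion list 13 of 19 genes were fitted higher and 6 lower, 2 and 2 at an unadjusted p under 0.05. Elmo1, which with Dock1 activates Rac in fusing myoblasts, was at 7.05, 7.14 and 4.14 CPM in CLL and 16.7, 24.3 and 25.1 CPM in SHAM. Its log2 fold was -1.74 ± 0.48 SE (edgeR adjusted p = 0.666). Lgals1, the galectin-1 gene, was at 3670, 4709 and 4211 CPM against 2351, 2626 and 3523 CPM (0.63 ± 0.22 SE, edgeR adjusted p = 0.692). Jam3, a junctional adhesion gene, was at 161, 49.9 and 157 CPM against 171, 298 and 331 CPM (-1.005 ± 0.43 SE, edgeR adjusted p = 0.692). None of these 3, the list's genes of smallest p, overlapped between the groups. They were the only such genes of the 19, against 14.3% of all genes tested. In the cell cycle exit list 5 of 15 genes were fitted higher and 10 lower, with a median of -0.48, and its members with the smallest p were the growth arrest genes Btg1 (-0.71 ± 0.24 SE) and Gadd45a (-0.91 ± 0.38 SE). The list median was -0.17 without CLL replicate 2, -0.21 without SHAM replicate 3 and -0.30 without SHAM replicate 2, and Gadd45a was at -0.40 without SHAM replicate 2.

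Genes of glycolysis and the hypoxia response leaned higher in CLL. All 21 that were tested had a fold above 0, 7 of them at an unadjusted p under 0.05 and none after adjustment, and their median log2 fold was 0.79 against -0.02 for all genes. Pgam1, a phosphoglycerate mutase gene, was at 169, 325 and 183 CPM in CLL and 138, 48.5 and 70.3 CPM in SHAM. Its log2 fold was 1.40 ± 0.40 SE (edgeR adjusted p = 0.666). Ldha, the lactate dehydrogenase gene, was at 404, 774 and 451 CPM against 286, 221 and 326 CPM (1.04 ± 0.30 SE, edgeR adjusted p = 0.666), and Egln1, an oxygen sensor gene, at 47.0, 146 and 67.0 CPM against 36.2, 31.5 and 15.1 CPM (1.50 ± 0.46 SE, edgeR adjusted p = 0.671). All CLL values lay above all SHAM values for these 3, and CLL replicate 2, with its adipocyte transcripts and shallow cells, was the highest each time. The groups did not overlap for 6 of the 21 genes, against 14.3% of all genes tested. The list's median was 0.47 without CLL replicate 2 and 0.49 without that library and SHAM replicate 1. When cells were drawn to 1000 UMIs it was 0.23, over only the genes that still had enough counts.

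Pax7-positive cells of the same libraries, with 1040 cells in place of 453, had more calls (281 genes higher, 2.92%, and 305 lower, 3.17%, or 6.09% of 9619, with 23.1% at an unadjusted p under 0.05). Of these 21 genes, 9 were called higher there, and the list median was 0.78. Ldha, at a log2 fold of 1.41 (edgeR adjusted p = 0.00858), and Pgam1, at 1.09 (adjusted p = 0.00419), were among them. The interaction test called no gene of the list, so a difference between the states was not shown. On simulated counts that test found only 69 of 200 genes changed by 2 on the log2 scale, so smaller differences would mostly be missed.

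Endoplasmic reticulum chaperones, the folding proteins of the secretory route, had a median log2 fold of 0.72. Of 21 tested, 18 were fitted higher and 3 lower, 8 and 0 at an unadjusted p under 0.05, and none passed. Pdia3, a disulfide isomerase gene, was at 232, 378 and 332 CPM in CLL and 180, 143 and 171 CPM in SHAM (0.99 ± 0.25 SE, edgeR adjusted p = 0.666). Hsp90b1, the gene of the chaperone GRP94, was at 435, 681 and 620 CPM against 403, 238 and 191 CPM (1.11 ± 0.29 SE, edgeR adjusted p = 0.666). Manf, a secreted stress protein gene, was at 203, 528 and 515 CPM against 211, 143 and 110 CPM (1.45 ± 0.37 SE, edgeR adjusted p = 0.666) and overlapped at 1 value in each group. In Pax7-positive cells 8 of the 21 were called higher, these 3 among them. The median in Myog myocytes was 0.91 without CLL replicate 2 and SHAM replicate 1. It was 0.28 when only cells with less than 1% of counts from other cell types' markers were kept, which leaves 126 of the 241 cells of SHAM replicate 1 and leaves out SHAM replicate 3. When cells were drawn to 1000 UMIs it was 0.25, over only the genes that still had enough counts.

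Interferon response genes leaned lower in CLL, with a median log2 fold of -0.86 over the 12 tested of 34 listed. Of these 10 were fitted lower, 5 at an unadjusted p under 0.05, and none passed. Irgm1, an interferon-induced GTPase gene, was at 3.53, 0 and 2.48 CPM in CLL and 19.6, 70.4 and 30.1 CPM in SHAM (-3.76 ± 0.75 SE, edgeR adjusted p = 0.515), which is 3, 0 and 3 UMIs against 27, 29 and 6. Irf9, which encodes the DNA-binding part of the interferon-activated complex, was at 4.70, 7.14 and 3.31 CPM against 28.2, 16.99 and 20.1 CPM (-2.29 ± 0.46 SE, edgeR adjusted p = 0.515). Irf1, an interferon-induced factor gene, was at 17.6, 14.3 and 38.9 CPM against 65.2, 51.0 and 95.3 CPM (-1.33 ± 0.39 SE, edgeR adjusted p = 0.666). None of these 3, the list's genes of smallest p, overlapped between the groups. The groups did not overlap for 5 of the 12 genes, against 14.3% of all genes tested. Drawing each cell to 1000 UMIs kept only the list's genes that still had enough counts, a smaller set than the 12, and their median was 0.13. Without CLL replicate 1 the list median was -0.56, and without CLL replicate 2 and SHAM replicate 1 it was -1.20. In Pax7-positive cells all 3 were called lower, at log2 folds of -3.15, -1.45 and -1.44, and 3 of the 12 in all. Over all barcodes past the quality filter the 33 listed genes found in the files summed to 2001, 1979 and 2173 CPM in CLL and to 3041, 3418 and 3508 CPM in SHAM. In Myog myocytes they summed to 663, 1113 and 1049 CPM and to 1558, 1109 and 1119 CPM. The part in this result of transcripts from other cells, whose macrophage marker sums are given above, was not tested.

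Imprinted growth genes, a network of parent-of-origin genes of embryonic and regenerating tissue, had a median log2 fold of -0.48, with 12 of 13 fitted lower and 4 of them at an unadjusted p under 0.05. Igf2, the growth factor gene that myocytes secrete, was at 156, 121 and 143 CPM in CLL and 224, 180 and 351 CPM in SHAM (-0.75 ± 0.29 SE, edgeR adjusted p = 0.692). Zim1, a zinc finger gene, was at 11.8, 10.7 and 12.4 CPM against 25.3, 21.8 and 25.1 CPM (-0.94 ± 0.34 SE, edgeR adjusted p = 0.692), and Peg10, a retrotransposon-derived gene, at 5.88, 25.0 and 11.6 CPM against 29.0, 21.8 and 55.2 CPM (-1.37 ± 0.53 SE, edgeR adjusted p = 0.692). Igf2 and Zim1 did not overlap between the groups and Peg10 did. The groups did not overlap for 4 of the 13 genes, against 14.3% of all genes tested. The list median was -0.15 without SHAM replicate 1 and -0.18 without both CLL replicate 2 and SHAM replicate 1, and Igf2 was at -0.42 without SHAM replicate 3. H19, the partner transcript of Igf2, was fitted at 0.74, and at 0.071 without CLL replicate 2. Pax7-positive cells had 7 of the 13 called lower, with Igf2 at -1.93 (edgeR adjusted p = 0.00379). Oxidative phosphorylation, by contrast, had 14 of 33 genes fitted higher and 19 lower, none at an unadjusted p under 0.05, with folds from -0.36 to 0.43.

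**Figure D4:**
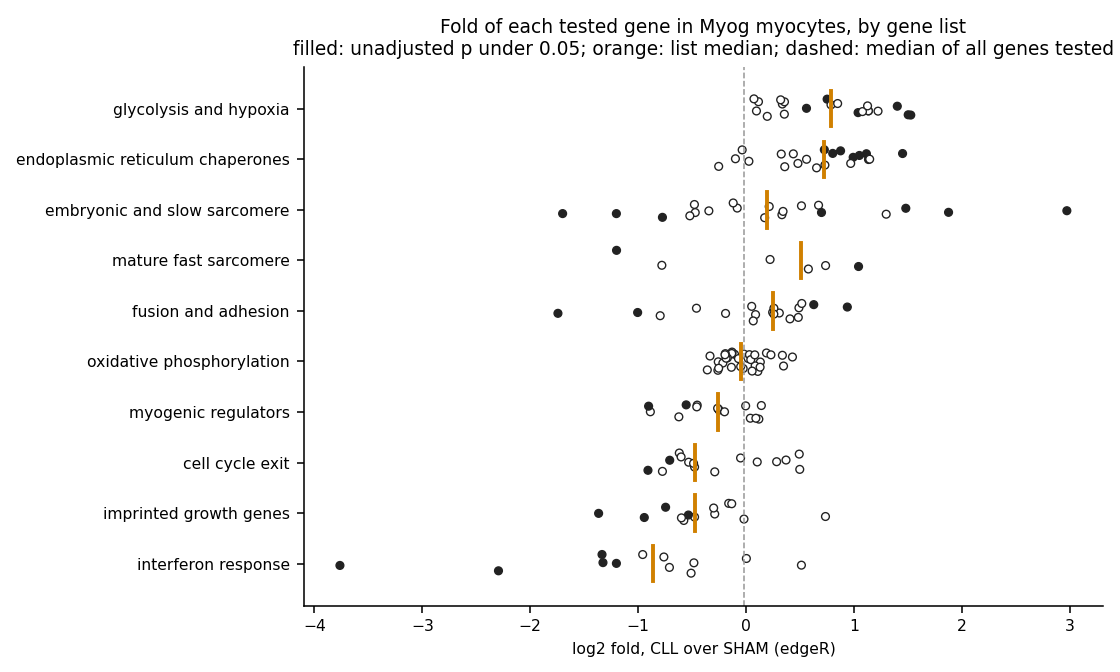
Log2 fold of CLL over SHAM for each tested gene of 10 lists in Myog myocytes. Genes of the rule are left out of the points but kept in the list medians. Filled points have an unadjusted p under 0.05, none passes after adjustment, and the list medians (orange) run from 0.79 for glycolysis and hypoxia to -0.86 for interferon response around a median of -0.02 for all genes (dashed).

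The 8 genes that DESeq2 called were looked up after their values had been seen. Beside Tnnt1 and Manf, those higher in CLL were Pmepa1, a TGF-beta feedback gene (544, 607 and 486 against 316, 233 and 196 CPM), Pdlim4, a cytoskeletal LIM protein gene (425, 489 and 550 against 232, 257 and 261 CPM), Crip1, a small LIM protein gene, the secreted factor gene C1qtnf3, and the mitochondrial carrier gene Mtch1. Kcnq1ot1, the antisense RNA of the imprinted domain that holds Cdkn1c, was lower (139, 99.9 and 88.5 against 348, 323 and 206 CPM). The groups did not overlap for any of these 6, and edgeR's adjusted p for them ran from 0.515 to 0.62. Their DESeq2 adjusted p ran from 0.0137 to 0.0294. No source used here gives how strand entered the counting, so reads of Kcnq1ot1 and of the gene it overlaps may not be told apart.

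The reporter transcript Tomato was present in these non-endothelial cells at 77.6, 71.4 and 81.9 CPM in CLL and 135, 143 and 146 CPM in SHAM. Its log2 fold was -0.80 ± 0.23 SE (edgeR adjusted p = 0.666), with no overlap. Macrophage-type barcodes of the same libraries held 69.4 to 71.8 CPM in CLL and 72.4 to 209 CPM in SHAM. Barcodes with the endothelial gene Pecam1 held 193 to 295 CPM in CLL and 1072 to 1887 CPM in SHAM. The part of free transcript in the level in Myog myocytes was not tested.

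**Figure D5:**
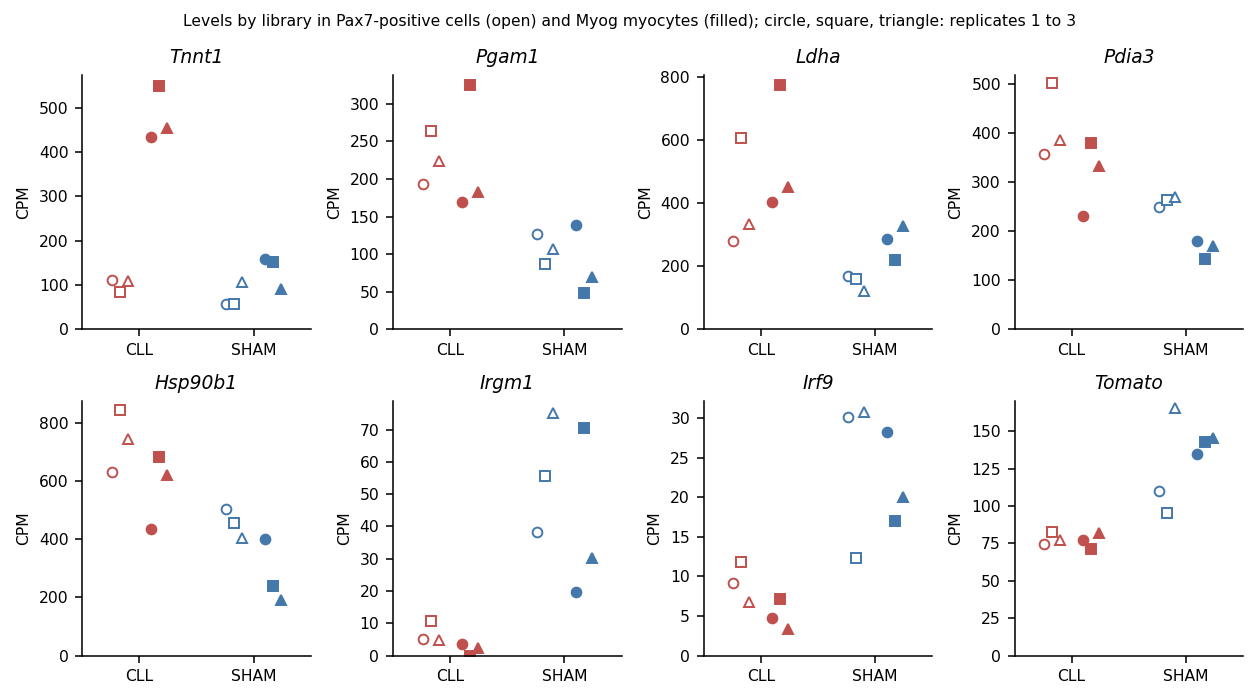
Level in CPM of 8 transcripts in Pax7-positive cells (open) and Myog myocytes (filled) by library, with circles, squares and triangles for replicates 1 to 3. Tnnt1 separates the groups in Myog myocytes, at 432 to 549 against 90.3 to 159 CPM, and Irgm1 is at 0 to 3.53 CPM in CLL against 19.6 to 70.4 CPM in SHAM.

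Whether the treatment effect differed between Myog myocytes and their precursors was tested as an interaction with the Pax7-positive cells of the same mice. Of 9117 genes 1 passed (0.011%) and 315 had an unadjusted p under 0.05 (3.46%), 176 higher (1.93%) and 139 lower (1.52%). On simulated counts this test found 69 of 200 genes changed by 2 on the log2 scale and 182 of 200 changed by 3. In the counts of the mice no gene passed without CLL replicate 1. Without CLL replicate 3, 10 genes were higher, without SHAM replicate 1 47 were higher and 9 lower, and without both CLL replicate 2 and SHAM replicate 1 37 and 11. Pdlim4 differed by 1.03 ± 0.20 SE (edgeR adjusted p = 0.886), and in Pax7-positive cells its means were 448 and 440 CPM.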

How the data were processed

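Cells of injured quadriceps were dissociated and sequenced on the Chromium 3' platform, per the labels' protocols. The deposited values are raw counts of UMIs per gene and barcode, made by the authors with Cell Ranger 6.1.2 on build mm10, per the submitters' processing notes. No source used here says how barcodes were selected or how strand was used. Of 32286 features, 32158 identifiers matched the reference names. Counts were summed per library over the Myog myocytes and tested with edgeR 4.0.16 (R 4.3.3; TMM scaling, filterByExpr, quasi-likelihood test, Benjamini-Hochberg threshold 0.05), with the mouse as replicate and at least 10 barcodes per library. CPM are counts scaled to a common total over all UMIs of those cells; 3' counts carry no gene length. DESeq2 1.42.0 was an alternative, and Scrublet (scanpy 1.11.5) marked 52 of 453 cells, which were kept. Shares were compared by exact permutation tests. The scripts were tested on simulated data. Named genes were a set of 24, for each list described the 3 genes of smallest p, and up to 8 genes per direction past the threshold, of which there were none. The members, the 24 gene lists and the 9 marker lists were chosen with earlier results of these data known. The 1 gene that passed the interaction test is not reported here.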

Additional observations from a re-analysis of the deposited data

How the results depend on the processing

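No alternative scaling, no exclusion of doublet calls, no limit of 8% mitochondrial counts, no minimum of 2 Myog UMIs, no limit of 1% myofibre transcripts and no drawing to 1000 UMIs gave an edgeR call between CLL and SHAM. Genes higher and lower in CLL were 101 and 83 with no expression filter, 7 and 1 in DESeq2, 18 and 5 without CLL replicate 2 and SHAM replicate 1 together, and 8 and 6 with under 1% of other cell types' markers. Neither of the last 2 settings was planned. Leaving out 1 library gave 0 to 36 and 0 to 11, all from leaving out SHAM replicate 1. In the interaction, 57 genes were higher and 18 lower with no filter, 37 and 11 without those 2 libraries, and 0 were higher after drawing to 1000 UMIs. Leaving out 1 library gave 0 to 47 and 0 to 9. The difference in the share of filtered barcodes ran from -0.0013 to 0.509 percentage points with 1 library left out, and the share of the muscle gate turned to 0.50 with no drawing down. The causes were not tested. Folds of uncalled genes changed sign. With under 1% myofibre transcripts they were -0.35 for Mymx, -0.43 for Myh3, -0.20 for Tnnt2, -0.30 for Myl4, -0.38 for Chrng, -0.0547 for Chrnd and 0.0867 for Mef2c. With at least 2 Myog UMIs, which also leaves out SHAM replicate 3 (8 cells, under the minimum of 10), they were 0.18 for Mymk, 0.52 for Mef2c, 0.0731 for Cdkn1a and -0.068 for Igfbp5. With under 1% of other cell types' markers, which leaves out the same library, they were 0.38 for Mymk, 0.42 for Mef2c, 0.19 for Cdkn1a and -0.21 for Igfbp5. Without the 2 libraries they were 0.55 for Myf5, 0.11 for Cdkn1a, -0.15 for Chrng and -0.0572 for Chrnd. DESeq2 gave 0.11 for Myf5 and -0.0209 for Chrng. Cdkn1a was at 0.0338 with no filter and 0.0245 without doublet calls, Chrng at -0.0526 with at most 8% mitochondrial counts, and Igfbp5 at -0.48 after drawing. With 1 library left out, folds ran from -0.45 to 0.23 for Mymk, -0.0477 to 0.35 for Mymx, -0.48 to 0.067 for Myf5, -0.63 to 0.70 for Mef2c, -0.19 to 0.17 for Cdkn1a, -0.13 to 0.38 for Hes6, -0.13 to 1.35 for Myh3, -0.31 to 0.96 for Chrng, -0.13 to 0.80 for Chrnd and -0.0252 to 1.31 for Igfbp5. With the replicate block no gene was called, Myf5 was at 0.18 and Mef2c at 0.0505. Same-numbered libraries of the 2 groups correlated at -0.321, -0.226 and 0.028, so the numbers were not taken to pair mice. Leaving out cells with 4 or more fibroblast markers was not run, since SHAM replicate 3 would keep none. SHAM replicates 2 and 3, with 21 and 11 cells, limit the precision.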

Other observations

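Other gene groups that the comparison of CLL with SHAM did not reach showed small sets of genes with an unadjusted p under 0.05 in Myog myocytes. In the list of BMP, TGF-beta and myostatin signalling, 3 of 17 genes tested were higher in CLL at that p and none lower. Fst, which encodes the myostatin and activin antagonist follistatin, was at 48.2, 21.4 and 23.2 CPM in CLL and 11.6, 2.43 and 0 CPM in SHAM, for a log2 fold of 2.15 ± 0.61 SE (edgeR adjusted p = 0.666). Behind it were 41, 6 and 28 UMIs against 16, 1 and 0. Smad7, an inhibitor gene of TGF-beta signalling, was at 41.1, 42.8 and 52.9 CPM against 31.9, 14.6 and 10.04 CPM, and Id1, a BMP target gene, at 79.9, 57.1 and 109 CPM against 54.3, 46.1 and 50.2 CPM. None of these 3 genes, the list's genes of smallest p, overlapped between the groups. They were the only such genes of the 17, against 14.3% of all genes tested. Of 23 immediate early and stress genes, 3 were lower at an unadjusted p under 0.05, and in Pax7-positive cells 10 of the 23 were called lower. Egr1, a growth factor response gene, was at 242, 453 and 288 CPM against 743, 544 and 492 CPM (log2 fold -0.80 ± 0.28 SE, edgeR adjusted p = 0.692), with no overlap.

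The remaining lists had median log2 folds of -0.26 for myogenic regulators, 0.51 for mature fast sarcomere, 0.06 for the acetylcholine receptor and synapse, -0.16 for calcium release, -0.05 for DNA replication and mitosis, -0.34 for the Notch pathway, -0.02 for muscle stem cell genes and -0.17 for the IGF axis. They were 0.44 for the Wnt pathway, -0.26 for MHC class I presentation, 0.13 for ribosome biogenesis, 0.18 for inflammatory signals, 0.34 for matrix and niche and 0.56 for cholesterol synthesis. These medians keep the rule's own genes where a list holds them, among them Myod1, Acta1, Chrna1 and Des. Those genes helped to choose the cells, so such medians are a description. No gene of these lists passed the edgeR test. Of the marker lists of other cell types, mural markers summed to 3795, 4099 and 4493 CPM in CLL and 2676, 2973 and 2770 CPM in SHAM, and endothelial markers to 2280 CPM in CLL replicate 2, 571 CPM in SHAM replicate 1 and 23.5 to 45.2 CPM elsewhere. Schwann or glial markers ranged from 6.62 to 489 CPM, tenocyte markers from 99.5 to 1270 CPM, and red blood cell markers were at 0 in all libraries but SHAM replicate 1, at 21.0 CPM.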
